A study of Saccharomyces cerevisiae with 19 samples.

Results

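The arrays described here followed wild-type budding yeast over the step from growth into the stationary culture. They are defined by strain and time labels, and the window was picked with earlier results of these data known: the wild-type arrays taken at 24, 36 and 48 h of culture were set against the wild-type array taken at 12 h, so 4 of the 19 arrays of the study enter the comparison. Each time point was a single Affymetrix Yeast 2.0 array of total RNA, with no replicate culture. The study also followed a strain labelled sch9Δ, named for a deletion of the gene of the nutrient-signalling kinase Sch9, from 12 to 108 h, and the wild type to 120 h. Both strains were started from frozen stocks, grown overnight to saturation in the medium the labels call SDC, diluted and shaken at a constant temperature, with no other treatment. The labels do not state the strain background, mating type, dilution, cell density or sugar content of the cultures.

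When budding yeast grows on glucose it ferments the sugar to ethanol and keeps the genes for respiration and for using other carbon sources repressed. When glucose runs out, cells pass the diauxic shift: growth slows, ethanol and acetate become the carbon source and are respired, sugars must be made by gluconeogenesis, and ribosome production is cut back. Target of rapamycin (TOR), Sch9 and protein kinase A (PKA) report good nutrition and hold back the stress factors Msn2, Msn4 and Gis1, while the kinase Snf1 and the activators Cat8 and Adr1 switch on genes for non-sugar carbon.

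All values are signals on a log2 scale after quantile normalization, and a difference is the mean of the 24, 36 and 48 h arrays minus the 12 h array, so that a difference of 1 is 2-fold. A gene is called higher or lower when all 3 later arrays lay on the same side of its 12 h value. With 1 array against 3, differences are descriptions without a test. In bulk RNA, fewer cells holding a message and less message per cell cannot be told apart, and the scaling hides any change in the total RNA of a cell.

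Of 5449 genes, 2122 (38.9%) were higher at all 3 later times and 2403 (44.1%) were lower, while 924 had later values on both sides of 12 h. At least 2-fold were 692 genes (12.7%) on the higher side and 760 (13.9%) on the lower side. The higher side reached further. Among the 692 genes 164 were higher by 4-fold or more and 61 by 8-fold or more, against 68 and 4 among the 760. The smallest difference counted as 2-fold was 1.00 on either side, and the largest left out was also 1.00 after rounding. The 3 later arrays lay close to each other and apart from 12 h. Between 12 h and each later array the median gene differed by 0.54 to 0.64 and 23.2% to 30.4% of genes by 2-fold. Among the later arrays the median gene differed by 0.14 to 0.26, and 0.0918% to 2.79% of genes by 2-fold. In the deposited values, before quantile normalization, the 12 h array was dimmer as a whole, with a median of 9.46 over the genes against 10.03, 9.95 and 9.95 at 24, 36 and 48 h. The share of higher genes among those on the same side was 46.9% here, 72.9% in the deposited values and 43.4% after centring each array on its median. A difference in the deposited values exceeds the one given here by a median of 0.50. Differences are therefore relative to the other genes of the array, and genes a little below 0 here were above 0 in the deposited values.

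The 15 genes with the largest positive differences included enzymes and carriers for the use of acetate and fatty acids. MLS1 (YNL117W), malate synthase of the glyoxylate cycle, gave 13.18, 13.06 and 12.84 at 24, 36 and 48 h, against 7.54 at 12 h, a difference of 5.49 or 45.0-fold. HSP30 (YCR021C), a stress-induced membrane protein that dampens the plasma membrane proton pump, gave 13.96, 14.04 and 13.96, against 8.53 at 12 h. SFC1 (YJR095W), the mitochondrial succinate-fumarate carrier, gave 13.30, 13.05 and 12.40, against 7.59 at 12 h. For each of these genes the lowest later array stood far above 12 h, by 4.81 for SFC1 at 48 h. The others were ATO2 at 5.13, CRC1 at 5.05, YNL194C at 5.01, FBP1 at 5.0, YIG1 at 4.83, TMA10 at 4.65, PCK1 at 4.57, SIP4 at 4.56, SPG1 at 4.54, ISF1 at 4.53, ICL1 at 4.49 and YMR206W at 4.47. YNL194C encodes a membrane protein of the cell cortex, YIG1 a protein that acts on glycerol formation and TMA10 a ribosome-associated protein, and YMR206W has no known role.

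The 15 largest negative differences mixed growth and division. PHO3 (YBR092C), a secreted acid phosphatase, gave 7.71, 7.86 and 7.98 at 24, 36 and 48 h, against 10.97 at 12 h, a difference of -3.12, or 8.71-fold lower. TOS6 (YNL300W), a cell wall protein, gave 9.14, 9.75 and 10.05, against 12.71 at 12 h. PCL1 (YNL289W), a G1 cyclin of the Pho85 kinase, gave 6.90, 7.12 and 7.13, against 10.07 at 12 h. RNR1 (YER070W), the large subunit of ribonucleotide reductase that makes DNA precursors, gave 8.88, 9.05 and 9.13, against 11.96 at 12 h. In all of these genes 24 h was the lowest of the 3 later arrays. UTR2, a cell wall crosslinking enzyme, stood at -3.01 and URA7, a CTP synthase, at -2.95. RPA49, RIX1, RPL13A, PRP43 and NOP58, which serve ribosome production, stood at -2.75, -2.69, -2.55, -2.54 and -2.43. SFG1 (-2.59), VEL1 (-2.54), YBR238C (-2.52) and GNP1 (-2.48), a glutamine permease, complete the set.

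**Figure D1:**
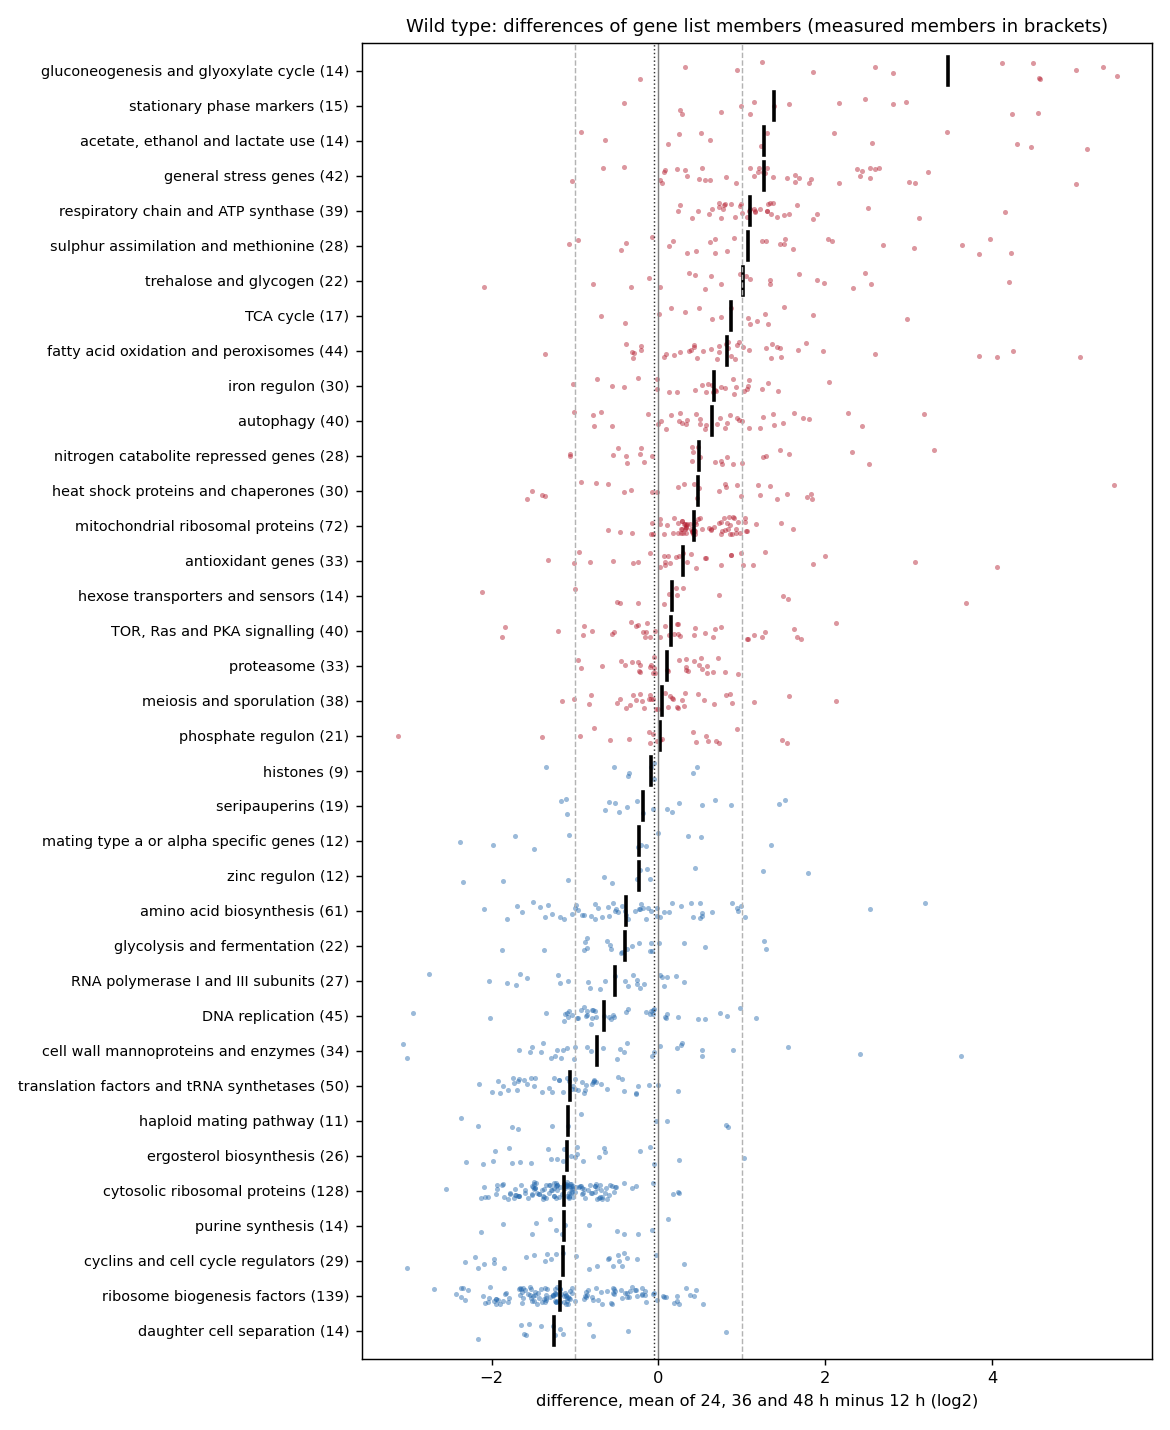
Difference of every measured member of 37 gene lists in the wild type, as the mean log2 signal at 24, 36 and 48 h minus 12 h. Points are genes, black bars list medians, dashed lines mark 2-fold and the dotted line the median of all genes; lists run from gluconeogenesis with a median of 3.47 at the top to daughter cell separation at -1.25 at the bottom.

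Gluconeogenesis and the glyoxylate cycle let cells build sugar from acetate. Of 14 measured genes 13 were higher, 11 of them at least 2-fold, and the median difference was 3.47 against -0.06 for all genes. ICL1 (YER065C), isocitrate lyase, gave 13.36, 13.13 and 12.80 at 24, 36 and 48 h, against 8.61 at 12 h. FBP1 (YLR377C), fructose-1,6-bisphosphatase, gave 12.88, 12.98 and 12.91, against 7.92 at 12 h, or 32.0-fold. PCK1 (YKR097W), the carboxykinase that commits carbon to gluconeogenesis, gave 13.35, 13.50 and 13.24, against 8.79 at 12 h. For all of these the later arrays lay closer to each other than to 12 h. Their activators were higher too: SIP4 by 4.56, CAT8 (YMR280C) by 2.81 and ADR1 (YDR216W) by 2.60. CAT8 gave 11.27, 11.32 and 10.88, against 8.34 at 12 h. IDP2, the cytosolic isocitrate dehydrogenase, stood at 4.12, MDH2, the cytosolic malate dehydrogenase, at 1.85, PYC1, a pyruvate carboxylase, at 1.24, CIT2, the peroxisomal citrate synthase, at 0.94 and ACO1, aconitase, at 0.32. PYC2, the second pyruvate carboxylase gene, was the only lower member at -0.22, and at 0.40 in the deposited values.

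Genes for taking up and activating acetate, ethanol and lactate followed. Of 14, 11 were higher, 8 at least 2-fold, and 2 lower, with a median of 1.27. ATO2 (YNR002C), a putative ammonium exporter, gave 12.98, 12.92 and 12.75 at 24, 36 and 48 h, against 7.75 at 12 h. ADY2 (YCR010C), the acetate transporter, gave 11.41, 11.84 and 12.11, against 7.32 at 12 h. JEN1 (YKL217W), the lactate and pyruvate permease, gave 12.94, 12.84 and 12.73, against 8.53 at 12 h. No later array of these transporters came near its 12 h value. ACS1, an acetyl-CoA synthetase, stood at 3.46, ACH1, which moves CoA between succinate and acetate, at 2.56, the lactate dehydrogenases CYB2 and DLD1 at 2.11 and 1.23, and the aldehyde dehydrogenase ALD3 at 1.30. The lower members were ACS2 (-0.65), the acetyl-CoA synthetase needed on glucose, and ALD5 (-0.93).

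Glycolysis and fermentation, the pathway from glucose to ethanol, shifted little. Of 22 measured genes 4 were higher and 16 lower, 2 of each at least 2-fold, and the median of -0.41 was 0.25 in the deposited values. HXK2 (YGL253W), the main hexokinase and a mediator of glucose repression, gave 11.16, 10.89 and 11.28 at 24, 36 and 48 h, against 12.98 at 12 h, or 3.66-fold lower. PFK2, a phosphofructokinase subunit, stood at -1.38 and the enolase ENO2 at -0.89. ADH2 (YMR303C), the alcohol dehydrogenase that oxidizes ethanol, gave 9.69, 10.29 and 10.75, against 8.95 at 12 h, a difference of 1.29. ADH5 stood at 1.27, the minor pyruvate kinase PYK2 at 0.56 and the glucokinase GLK1 at 0.31.

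Hexose transporters and sensors had no common direction. Of 14 measured, 6 were higher and 5 lower, 3 and 2 of them at least 2-fold, and the median of 0.17 turned to -0.10 with median centring and was 0.72 with dim genes left out. HXT1 (YHR094C), a low-affinity transporter made at high glucose, gave 8.31, 8.93 and 9.08 at 24, 36 and 48 h, against 10.89 at 12 h. HXT3, also of low affinity, stood at -1.0, on the 2-fold line, and at -0.96 without the 24 h array. HXT5 (YHR096C), a transporter of slow growth, gave 12.09, 12.35 and 12.30, against 8.56 at 12 h, or 12.9-fold. HXT1 was lowest at 24 h, and the 3 later arrays of HXT5 were alike. HXT7, a high-affinity transporter read by a probe set that other hexose transporters may share and therefore uncertain, stood at 1.55. Both glucose sensors were higher, SNF3 by 1.5 and RGT2 by 0.72, while HXT2 (-0.50) and HXT4 (-0.24) were lower and both were nearer 0 or above it in the deposited values, at -0.02 and 0.40.

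Some isoenzymes of the same step, in pairs picked by hand, stood on opposite sides of 0. How often unrelated genes do so was not counted. ACS1 and ACS2 stood at 3.46 and -0.65, and the glutamate dehydrogenases GDH3 and GDH1 at 3.19 and -0.97. GDH3 (YAL062W), the isoform of non-fermentable carbon, gave 12.31, 11.99 and 11.52 at 24, 36 and 48 h, against 8.75 at 12 h, and GDH1 gave 12.70, 11.98 and 12.03, against 13.20 at 12 h. The phosphoglucomutases PGM2 and PGM1 stood at 0.98 and -2.09, the Hsp70 chaperones SSA3 and SSA2 at 1.42 and -1.36, and the cAMP phosphodiesterases PDE1 and PDE2 at 1.63 and -0.91. ADH2 and ADH1 stood at 1.29 and -0.44, and PYK2 and CDC19 at 0.56 and -0.45. ADH1 and CDC19 were above 0 in the deposited values, at 0.26 and 0.10. The PKA catalytic subunits TPK3 and TPK2 stood at -0.80 and 1.24. In other pairs both members were higher, by unlike amounts. The cytosolic and mitochondrial isocitrate dehydrogenases IDP2 and IDP1 stood at 4.12 and 0.15, and the mitochondrial citrate synthases CIT3 and CIT1 at 2.98 and 0.87. HXK1, partner of HXK2, gave 13.03, 12.91 and 13.06, against 12.99 at 12 h, so its later arrays lay on both sides. The glyceraldehyde-3-phosphate dehydrogenases TDH1 (-0.09) and TDH3 (-0.07) hardly differed from 12 h.

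**Figure D2:**
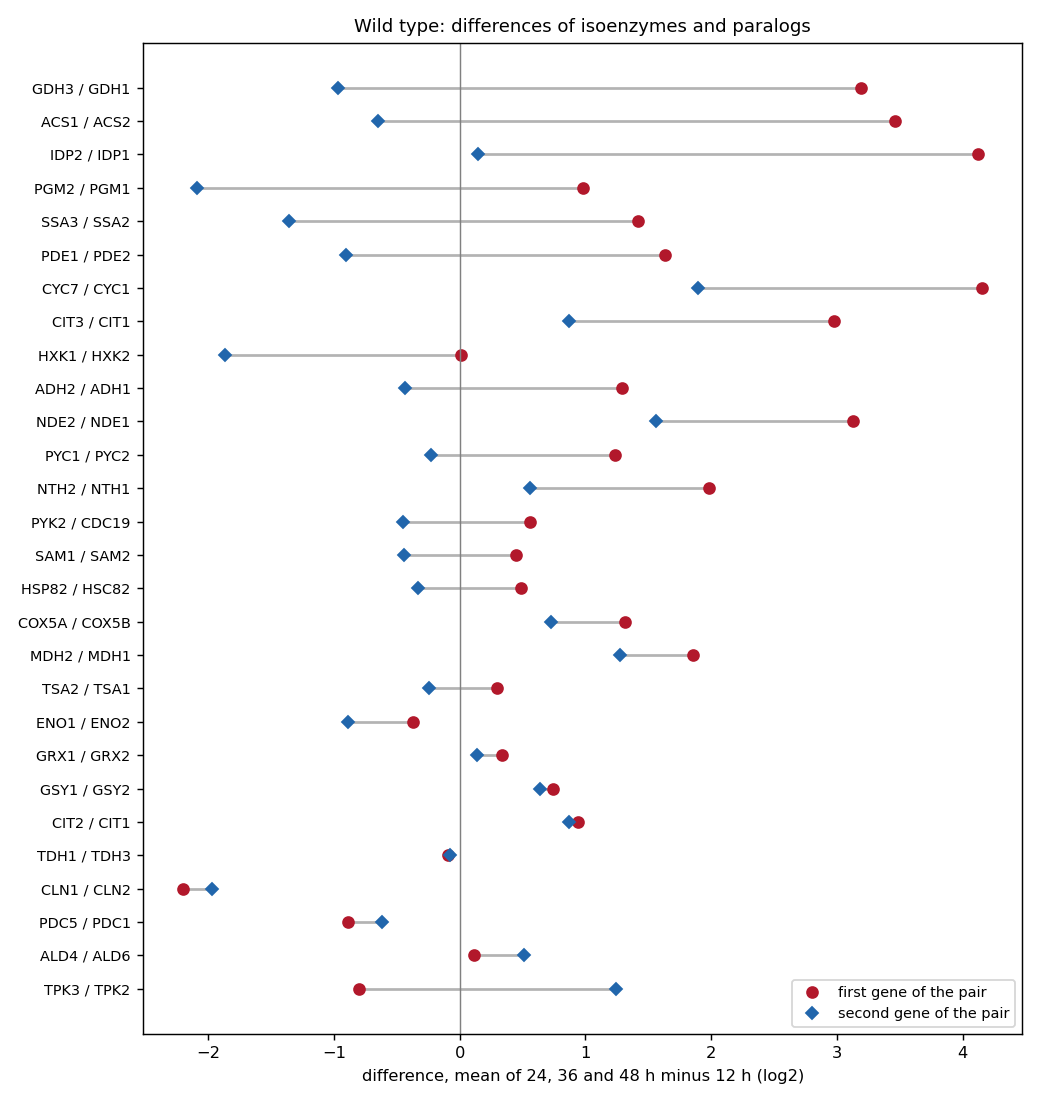
Difference of both members of isoenzyme and paralog pairs in the wild type, mean log2 signal at 24, 36 and 48 h minus 12 h, with circles for the first gene named and diamonds for the second. Pairs are ordered by the first minus the second; GDH3 and GDH1 at the top lie at 3.19 and -0.97.

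The tricarboxylic acid (TCA) cycle and the respiratory chain, which burn acetyl units in mitochondria, were higher nearly throughout. Of 17 TCA cycle genes 14 were higher, 8 at least 2-fold, with a median of 0.87. CIT3 (YPR001W) gave 10.92, 10.72 and 10.92 at 24, 36 and 48 h, against 7.88 at 12 h. The succinate dehydrogenase subunits SDH2 and SDH1 stood at 1.85 and 1.31, KGD2, of the 2-oxoglutarate dehydrogenase complex, at 1.5, and the mitochondrial malate dehydrogenase MDH1 at 1.28. The lower members were the subunits of succinyl-CoA ligase, LSC2 at -0.68 and LSC1 at -0.40.

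Of 39 genes for the respiratory chain and ATP synthase 38 were higher, 23 at least 2-fold, and none was lower on all 3 later arrays. The median was 1.09. CYC7 (YEL039C), the minor cytochrome c isoform, gave 12.25, 12.95 and 13.05 at 24, 36 and 48 h, against 8.59 at 12 h, or 17.9-fold. CYC1 (YJR048W), the major isoform, gave 12.58, 12.38 and 12.25, against 10.51 at 12 h. The internal and external NADH dehydrogenases NDI1, NDE1 and NDE2 stood at 2.51, 1.56 and 3.13, and the cytochrome oxidase isoforms COX5A and COX5B at 1.31 and 0.73. The smallest differences belonged to ATP synthase and a factor that stabilizes its inhibited form: STF2 0.24, ATP1 0.26, ATP7 0.40 and ATP5 0.47. ATP7 gave 13.26, 12.89 and 12.38, against 12.45 at 12 h, and was the member with later arrays on both sides.

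Mitochondrial ribosomal proteins, which translate the few messages of the mitochondrial genome, were also higher, and that was largest at 24 h. Of 72 measured, 54 (75.0%) were higher, against 38.9% of all genes, and 2 were lower. The rise was mostly small: 7 (9.72%) were higher by at least 2-fold, against 12.7% of all genes, and the median was 0.43. The median stood at 0.71 at 24 h, 0.47 at 36 h and 0.25 at 48 h. MRPS17 (YMR188C) gave 10.36, 10.87 and 10.88, against 9.09 at 12 h, and RSM28 (YDR494W) gave 10.90, 10.92 and 10.68, against 9.37 at 12 h. MRPL33 stood at 1.17 and MRPL28 at 1.07, and the lower members were MRPL11 at -0.60 and MRPL32 at -0.47.

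Peroxisomes burn fatty acids in yeast, and carnitine carries the acetyl units to mitochondria. Of 44 genes for fatty acid oxidation and peroxisomes 35 were higher, 16 at least 2-fold, and 7 lower, with a median of 0.82. The carnitine shuttle led. CRC1 (YOR100C), the mitochondrial carnitine carrier, gave 13.13, 13.09 and 12.98 at 24, 36 and 48 h, against 8.02 at 12 h, or 33.1-fold. YAT2 (YER024W), a carnitine acetyltransferase, gave 13.50, 13.22 and 12.99, against 8.99 at 12 h. CAT2, the peroxisomal and mitochondrial carnitine acetyltransferase, stood at 3.85 and the peroxisomal catalase CTA1 at 4.06. YAT1, another carnitine acetyltransferase, gave 6.78, 6.73 and 6.72, against 7.05 at 12 h, low values in all 4 arrays. FAA4, an acyl-CoA synthetase for imported fatty acids, stood at -1.35, and the peroxisome membrane proteins PEX32 and PEX25 at -0.38 and -0.32.

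Autophagy, the degradation of cell contents in the vacuole, was higher in 30 of 40 genes, 12 at least 2-fold, and lower in 5, with a median of 0.64. ATG39 (YLR312C), the receptor for autophagy of the nucleus, gave 11.35, 12.08 and 12.00 at 24, 36 and 48 h, against 8.64 at 12 h. ATG1, the starting kinase, stood at 2.28, ATG41 at 2.44 and ATG32, the receptor for mitochondria, at 1.81. The lower members included ATG19 (-1.01), the receptor of the cytoplasm-to-vacuole route of growing cells, whose value was -0.95 without 24 h and -0.99 without 36 h. Next came ATG27 (-0.78), VPS15 (-0.77) and VAC8 (-0.69). Proteasome genes showed no such shift: 16 of 33 were higher and 11 lower, none by 2-fold, with a median of 0.10. RPN4, the activator of the proteasome genes, stood at 0.95 and RPT2 at 0.79, while the core subunits PUP1 and PRE6 stood at -0.97 and -0.93.

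Trehalose and glycogen are the reserve sugars that yeast stores on leaving growth. Of 22 genes 17 were higher, 11 at least 2-fold, and 3 lower, with a median of 1.02. GAC1 (YOR178C), which directs phosphatase to glycogen synthase, gave 11.34, 12.15 and 12.35 at 24, 36 and 48 h, against 7.75 at 12 h. GIP2, of the same family, stood at 2.55, the glycogen primers GLG2 and GLG1 at 2.33 and 1.68, the acid trehalase ATH1 at 2.47 and the neutral trehalases NTH2 and NTH1 at 1.98 and 0.56. PGM1 (YKL127W), the minor phosphoglucomutase, gave 9.21, 9.56 and 9.78, against 11.61 at 12 h. TPS3, a regulatory subunit of trehalose synthase, stood at -0.78 and PIG1 at -0.33, and UGP1 had later arrays on both sides (-0.11).

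Stress genes of the Msn2, Msn4 and Gis1 programme were higher in 36 of 42 cases, 26 at least 2-fold, and lower in 3, with a median of 1.27. YNL194C gave 11.86, 12.64 and 12.59 at 24, 36 and 48 h, against 7.36 at 12 h. USV1 (YPL230W), a transcription factor of growth on non-fermentable carbon, gave 10.59, 11.48 and 12.04, against 8.14 at 12 h. GPX1, a phospholipid hydroperoxide peroxidase, stood at 3.07 and PHM7 at 3.01. USV1 was lowest at 24 h and highest at 48 h among the later arrays. GPD1, the glycerol-3-phosphate dehydrogenase of osmotic stress, stood at -1.04 and at -0.96 without 24 h, YJL107C at -0.66 and GRE2 at -0.41.

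Markers of stationary phase were higher in 14 of 15 cases, 10 at least 2-fold, with a median of 1.38. SPG1 (YGR236C) gave 11.96, 12.26 and 12.17 at 24, 36 and 48 h, against 7.59 at 12 h, and SPG4 (YMR107W) gave 12.54, 12.41 and 12.43, against 8.23 at 12 h. The vitamin B6 genes SNO1 and SNZ1 stood at 2.96 and 2.81. SIP18 (YMR175W), a desiccation protein, gave 12.12, 10.52 and 10.34, against 8.83 at 12 h, so it was highest at 24 h. GRE1, its relative, stood at 1.15 and SPS100, a spore wall protein, at 1.57.

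Heat shock proteins and chaperones had members on both sides. Of 30, 19 were higher and 8 lower, 9 and 4 at least 2-fold, with a median of 0.48. HSP30 led, and the disaggregase HSP78, the Hsp110 chaperone SSE2 and the small heat shock protein HSP42 stood at 1.84, 1.82 and 1.78. The 4 lowest members were SSA2 and chaperones that sit on the ribosome: ZUO1 (YGR285C) gave 11.78, 11.40 and 11.26 at 24, 36 and 48 h, against 13.05 at 12 h. SSZ1 stood at -1.51, SSB2 at -1.39 and SSA2 at -1.36. Antioxidant genes were higher in 20 of 33 cases and lower in 7, 7 and 2 of them at least 2-fold, with a median of 0.30. Besides CTA1 and GPX1, GSH1, the first enzyme of glutathione synthesis, stood at 2.00 and the methionine sulphoxide reductase MXR1 at 1.85. GSH2, the second enzyme of that route, gave 9.63, 9.49 and 9.67, against 10.92 at 12 h, on the other side from GSH1. The cytosolic catalase CTT1 stood at 1.28, the thioredoxin reductase TRR1 at -0.95 and the thioredoxin TRX1 at -0.82.

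Ribosome production was lower as a group. Of 128 measured genes for cytosolic ribosomal proteins 124 were lower, 87 at least 2-fold, and 1 was higher, with a median of -1.13 here and -0.49 in the deposited values. RPL13A (YDL082W) gave 9.68, 9.37 and 9.41 at 24, 36 and 48 h, against 12.03 at 12 h, or 5.85-fold lower. RPL6B (YLR448W) gave 10.83, 10.28 and 10.41, against 12.63 at 12 h. RPL17B stood at -2.09 and RPS0B at -2.07. The higher member was RPS14B (YJL191W), at 11.70, 11.60 and 11.78, against 11.46 at 12 h, while its twin RPS14A stood at -0.59. RPS27A gave 12.39, 12.80 and 13.09, against 12.52 at 12 h, and its twin RPS27B stood at -0.68. Most ribosomal proteins of yeast come from duplicate genes. Of 50 duplicate pairs 36 were read by probe sets with no shared-sequence suffix, and in these the median gap between twins was 0.33. Only RPL13A and RPL13B, at -2.55 and -1.52, differed by 1 or more.

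Ribosome biogenesis factors, which process ribosomal RNA and assemble subunits, were lower in 121 of 139 cases, 87 at least 2-fold, and higher in 7, with a median of -1.17. RIX1 (YHR197W) gave 8.13, 7.54 and 7.55 at 24, 36 and 48 h, against 10.43 at 12 h. NOP58 (YOR310C), a core protein of small nucleolar ribonucleoproteins, gave 10.38, 9.49 and 9.93, against 12.36 at 12 h. The helicase DBP2 stood at -2.37 and the nucleolin-like NSR1 at -2.36. The highest members were NOP16 (0.53), DIM1 (0.45), NOP19 (0.43) and RIO1 (0.38), none at 2-fold.

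RNA polymerase I makes the large ribosomal RNAs and polymerase III makes transfer RNAs and 5S RNA. Of 27 subunits and factors 21 were lower, 9 at least 2-fold, and 2 higher, with a median of -0.52, and -0.06 in the deposited values. RPA49 (YNL248C) gave 8.48, 7.70 and 7.91 at 24, 36 and 48 h, against 10.78 at 12 h. RPA43 stood at -2.03, RPA135 at -1.71 and RPC19, shared by both enzymes, at -1.81. In a grouping made after the values were seen, the 7 subunits of polymerase I alone had a median of -1.66, the 10 of polymerase III alone -0.38 and the 7 initiation factors of polymerase I 0.04. Translation factors and tRNA synthetases were lower in 47 of 50 cases, 28 at least 2-fold, with a median of -1.06. The tRNA synthetases TYS1, FRS1 and SES1 stood at -2.15, -1.99 and -1.90 and the initiation factor RPG1 at -1.93. SUI1 was the only higher member, at 0.23.

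Cell division genes were on the lower side. Of 29 cyclins and cell cycle regulators 24 were lower, 15 at least 2-fold, and 1 higher, with a median of -1.14. CLN1 (YMR199W) and CLN2 (YPL256C) are the G1 cyclins that start the cycle. CLN1 gave 7.86, 8.34 and 8.52 at 24, 36 and 48 h, against 10.44 at 12 h, and CLN2 gave 8.52, 8.76 and 8.86, against 10.68 at 12 h. The repressor YOX1 stood at -2.32 and FAR1 at -2.16. WHI5, the inhibitor of the start of the cycle, was the only higher member, at 0.31, and the inhibitor SIC1 stood at -0.03 with arrays on both sides. DNA replication genes were lower in 30 of 45 cases, 9 at least 2-fold, and higher in 7, with a median of -0.65. After RNR1 came the sliding clamp POL30 at -2.02, the clamp loader subunit RFC5 at -1.35 and RNR4 at -1.13. The highest were DPB11 at 1.17, which was 0.97 without 36 h, and the kinase CDC7 at 0.98.

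Histone genes had no common direction: of 9, 2 were higher and 4 lower, and the median of -0.09 was 0.55 in the deposited values and 0.03 after centring on medians. HTB2 gave 10.46, 10.98 and 11.23 at 24, 36 and 48 h, against 12.24 at 12 h, while HTA1 gave 13.00, 12.94 and 12.74, against 12.43 at 12 h. HTB1 stood at -0.54. Genes for separating the daughter cell were lower in 13 of 14 cases, 10 at least 2-fold, with a median of -1.25. EGT2 (YNL327W) gave 9.28, 9.78 and 9.89, against 11.81 at 12 h. The wall-degrading enzymes DSE4, SCW11, DSE2 and CTS1 stood at -1.62, -1.55, -1.40 and -1.18, SUN4 at -1.65 and the daughter-specific regulator ASH1 at -1.58. RME1, a regulator that also represses meiosis, was the higher member, at 0.81.

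Cell wall genes were lower in 23 of 34 cases, 15 at least 2-fold, and higher in 8, with a median of -0.74. TOS6 and UTR2 were followed by the chitin synthase CHS2 (-1.67) and the glucanase-like SCW10 (-1.54). On the other side stood FLO11 (YIR019C), the flocculin of adhesion and filamentous growth, at 12.86, 12.72 and 11.98, against 8.89 at 12 h. SPI1 stood at 2.41, TIP1 at 1.55 and PIR3 at 0.89.

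The mating and meiosis lists served as a check for other cell states. Of 12 genes specific to the a or alpha mating type 3 were higher and 8 lower, 1 and 5 of them at least 2-fold. The median was -0.23. Not every lower member is named below, nor are all 5 that were lower by 2-fold. MFA2, STE6 and ASG7 of the a mating type are not given, so the named genes do not describe that type as a whole. Genes of the alpha mating type were lower: MF(ALPHA)2 gave 9.59, 10.16 and 10.54 at 24, 36 and 48 h, against 12.48 at 12 h, STE3 stood at -1.72 and SAG1 at -1.5. MF(ALPHA)1 stood at -1.08, at -0.94 without 36 h and at -0.99 without 48 h. Among genes of the a mating type MFA1 gave 8.62, 9.99 and 10.30, against 8.29 at 12 h. The differences of STE2 and BAR1 were 0.35 and -0.15, and AGA2 had later arrays on both sides of 12 h. Signals of different probe sets cannot be set against each other, so no mating type was called. Of 11 genes of the haploid mating pathway 7 were lower, 6 at least 2-fold, and 2 higher, with a median of -1.09. The mating-type switching endonuclease HO gave 7.90, 8.26 and 8.41, against 10.56 at 12 h. The factor STE12 stood at -1.76, GPA1 at -1.69, FUS1 at -1.28, STE4 at -1.09 (-0.93 without 24 h) and STE18 at 0.84. Among genes of meiosis and spore formation, 16 of 38 stood higher and 16 stood lower, 3 and 2 at least 2-fold, and the median of 0.04 was -0.24 with median centring and 1.02 with dim genes left out. The sporulation markers IME1, NDT80, SPO11, SPS1, SPS2, DIT1 and DIT2 lay between -0.46 and 0.47, and the kinase IME2 stood at 2.13.

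Biosynthesis split by pathway. Sulphur assimilation and methionine genes were higher in 22 of 28 cases, 14 at least 2-fold, and lower in 3, with a median of 1.07. MET32 (YDR253C), a zinc finger activator of the pathway, gave 9.87, 11.65 and 11.81 at 24, 36 and 48 h, against 6.88 at 12 h, or 18.8-fold. MET2, of the branch from homoserine to methionine, gave 11.71, 11.87 and 11.61, against 7.76 at 12 h. STR3, an enzyme between cysteine and homocysteine, stood at 3.84 and the methionine permease MUP3 at 3.64. The lower members included CYS3, at -1.08 and at -0.88 without 24 h, and the high-affinity methionine permease MUP1 at -0.96. MET32 was the lowest at 24 h among its later arrays.

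Amino acid biosynthesis as a whole was lower in 33 of 61 cases, 13 at least 2-fold, and higher in 16, 3 at least 2-fold; the median of -0.39 was 0.17 in the deposited values. Lysine genes led the lower side, with LYS9 (YNR050C) at 10.97, 11.31 and 11.50 at 24, 36 and 48 h, against 13.35 at 12 h. LYS2 stood at -1.69, LYS12 at -1.64 and the chorismate mutase ARO7 at -1.82. The largest positive differences were those of GDH3 and of SER3, of serine synthesis, which stood at 2.54. Genes under nitrogen catabolite repression were higher in 18 of 28 cases, 7 at least 2-fold, and lower in 9, with a median of 0.49. PUT1 (YLR142W), proline oxidase, gave 11.69, 12.30 and 12.71, against 8.93 at 12 h. The GABA permease UGA4 stood at 2.52, the proline permease PUT4 at 2.32 and the NAD-dependent glutamate dehydrogenase GDH2 at 1.56, while the general amino acid permease GAP1 stood at -1.06 and at -0.99 without 24 h.

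Purine and ergosterol synthesis were lower. Of 14 purine genes 12 were lower, 8 at least 2-fold, and 1 higher, with a median of -1.13. IMD4 (YML056C), an IMP dehydrogenase of guanine nucleotide synthesis, gave 8.81, 9.22 and 9.42 at 24, 36 and 48 h, against 11.28 at 12 h. IMD3, its relative, stood at -1.86, ADE6 at -1.52, GUA1 at -1.47 and ADE3 at 0.11. Of 26 ergosterol genes 22 were lower, 14 at least 2-fold, and 2 higher, with a median of -1.09. ERG5 (YMR015C) gave 9.25, 9.35 and 9.50, against 11.67 at 12 h, and ERG25 (YGR060W) gave 10.20, 10.34 and 10.74, against 12.52 at 12 h. ERG6 stood at -1.99 and ERG13 at -1.96. The sterol regulator ECM22 was a higher member at 1.02, and at 0.95 without 36 h.

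Metal and phosphate genes were mixed. Of 30 iron regulon genes 23 were higher, 8 at least 2-fold, and 4 lower, with a median of 0.67. ISU1 (YPL135W), the scaffold for iron-sulphur clusters, gave 13.68, 13.73 and 13.82 at 24, 36 and 48 h, against 11.69 at 12 h. The cell wall protein FIT2 stood at 1.43, COT1 at 1.32 and the copper ATPase CCC2 at 1.24. The high-affinity uptake pair went the other way: FET3, the oxidase, gave 9.51, 10.47 and 10.99, against 11.05 at 12 h, and FTR1, the permease, stood at -1.03, at -0.99 without 24 h or without 36 h. Of 12 zinc regulon genes 3 were higher and 7 lower, 2 and 3 at least 2-fold; the median of -0.24 was 0.42 in the deposited values. ADH4 (YGL256W) gave 10.54, 10.30 and 10.53, against 12.80 at 12 h, ZPS1 stood at -1.86 and DPP1 at -1.08, and ZRG8 and ZRT2, a zinc transporter, stood at 1.80 and 1.26. VEL1, known to be induced by zinc shortage, gave 7.39, 7.70 and 7.69, against 10.14 at 12 h. Phosphate regulon genes were higher in 8 of 21 cases and lower in 6, with a median of 0.02 that was -0.04 without 24 h. PHO3 and the phosphate transporter PHO84 (-1.40) were lowest, and PHM8 (1.54) and the activator PHO2 (1.48) highest.

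Genes of the signalling pathways themselves had no common direction. Of 40 genes of TOR, Ras, PKA and Snf1 signalling 19 were higher and 12 lower, 9 and 3 at least 2-fold, with a median of 0.16. SIP2 (YGL208W), a subunit of the Snf1 kinase, gave 10.68, 10.96 and 10.92 at 24, 36 and 48 h, against 8.72 at 12 h. LST8, a TOR complex subunit, stood at 1.71 and DOT6, a repressor of ribosome biogenesis genes, at 1.66. TOD6, the relative of DOT6, stood at -0.33 and at 0.29 in the deposited values. The glucose repressor MIG2 (YGL209W) gave 8.85, 9.47 and 9.66, against 11.17 at 12 h, and RAS1 stood at -1.20. SCH9 (YHR205W) gave 10.86, 11.26 and 11.13, against 10.43 at 12 h, a difference of 0.65. In the labelled mutant its probe set gave 10.08, 10.07 and 10.32, against 10.59 at 12 h. The labels do not say where the probes lie relative to the deletion, so this does not check the label. Of 19 seripauperin and related genes 7 were higher and 10 lower, 2 and 3 at least 2-fold; 11 were read by probe sets with shared sequence and are uncertain, and the median of -0.18 was 0.38 in the deposited values.

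The 24 h array is part of the mean that chose the 2-fold genes, so its share is a description only. Of the 692 genes higher by 2-fold, 536 (77.5%) were already 2-fold higher at 24 h, and of the 760 lower ones 588 (77.4%) were already 2-fold lower. Between 24 and 48 h the median change was 0.20 in the higher set and -0.09 in the lower set. List medians moved in different ways inside the window. Stationary phase markers stood at 1.21, 1.42 and 1.51 at 24, 36 and 48 h and the iron regulon at 0.43, 0.68 and 0.85. The mitochondrial ribosomal proteins declined, as given above, and the respiratory chain stood at 1.19, 1.11 and 1.00. Cytosolic ribosomal proteins stood at -0.97, -1.28 and -1.18, lowest at 36 h, and daughter cell separation at -1.45, -1.26 and -1.08.

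After 48 h most of the 2-fold differences were still on the same side. These genes were chosen by their 24 to 48 h values, so a smaller size later follows in part from that choice. The later differences share the 12 h array with the earlier ones. The mean of 60 to 120 h was still 2-fold higher than 12 h for 488 of the 692 genes (70.5%) and 2-fold lower for 459 of the 760 (60.4%), and all 6 arrays of 60 to 120 h stayed on the same side in 683 and 755. List medians moved both ways. The list median of stationary phase markers was 2.01 over 60 to 120 h, above that of 24 to 48 h. Ribosome biogenesis factors (-1.33) and general stress genes (1.38) were also further from 0 than at 24 to 48 h. Cytosolic ribosomal proteins (-0.78) and ergosterol synthesis (-0.67) were nearer 0. The list median of the mitochondrial ribosomal proteins was -0.03, that of the proteasome -0.30, and that of cyclins -0.76. MLS1 lay between 12.01 and 12.64 over 60 to 120 h and FBP1 between 12.70 and 12.90.

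**Figure D3:**
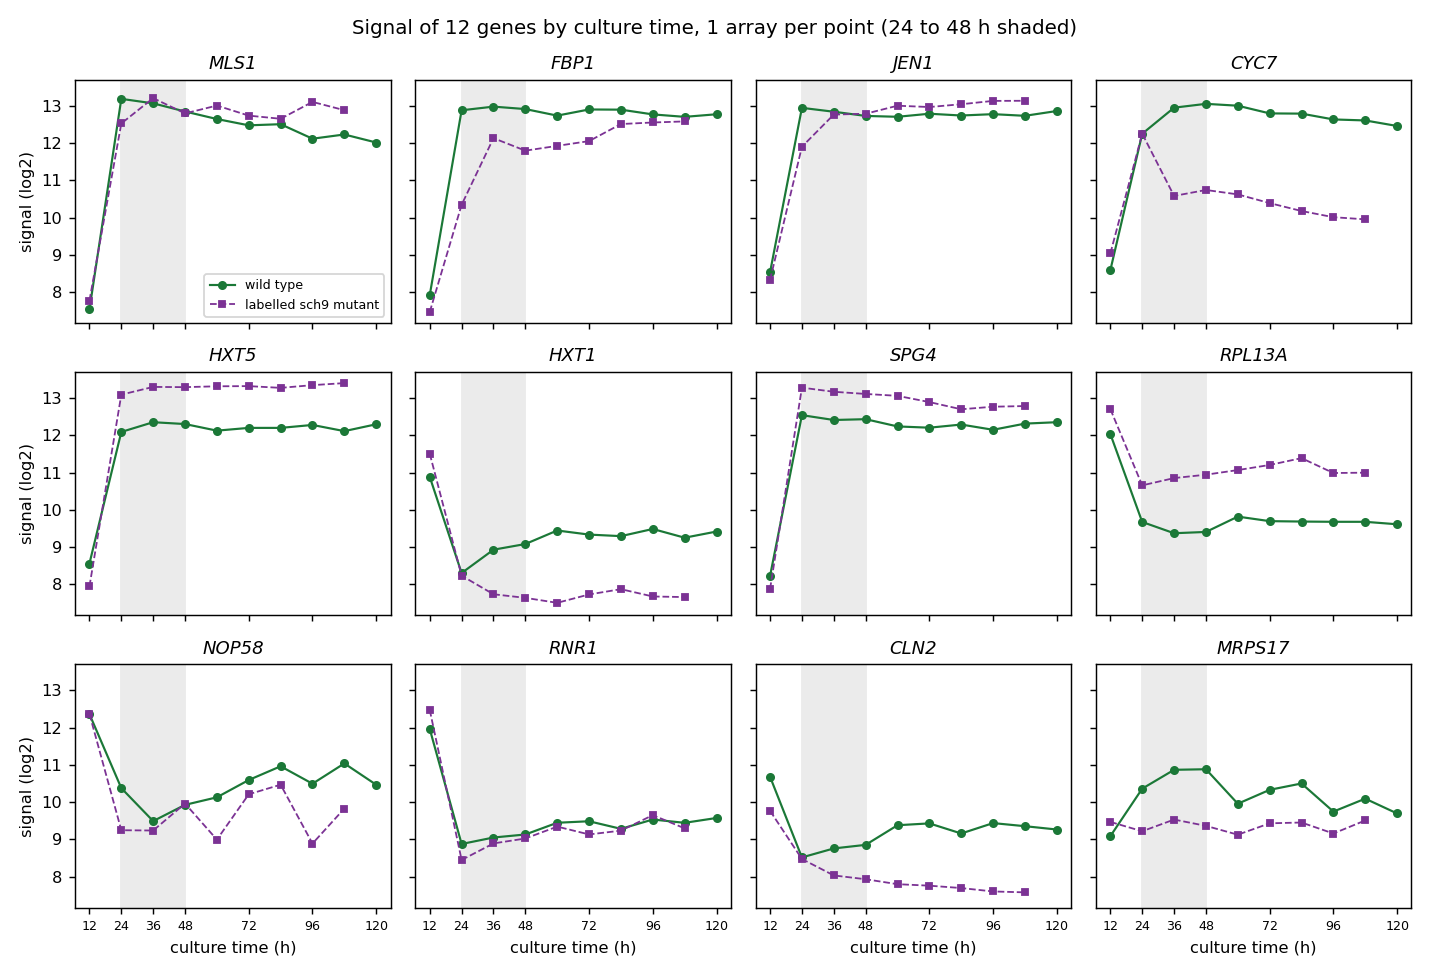
Log2 signal of 12 genes by culture time in hours, with circles and solid lines for the wild type and squares and dashed lines for the labelled sch9 mutant, 1 array per point, the window of 24 to 48 h shaded. In the wild type the step between 12 and 24 h is larger than any later step for MLS1, FBP1, JEN1, HXT5, SPG4, RPL13A and RNR1, while MRPS17 peaks within the window and RPL13A stays low to 120 h.

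**Figure D4:**
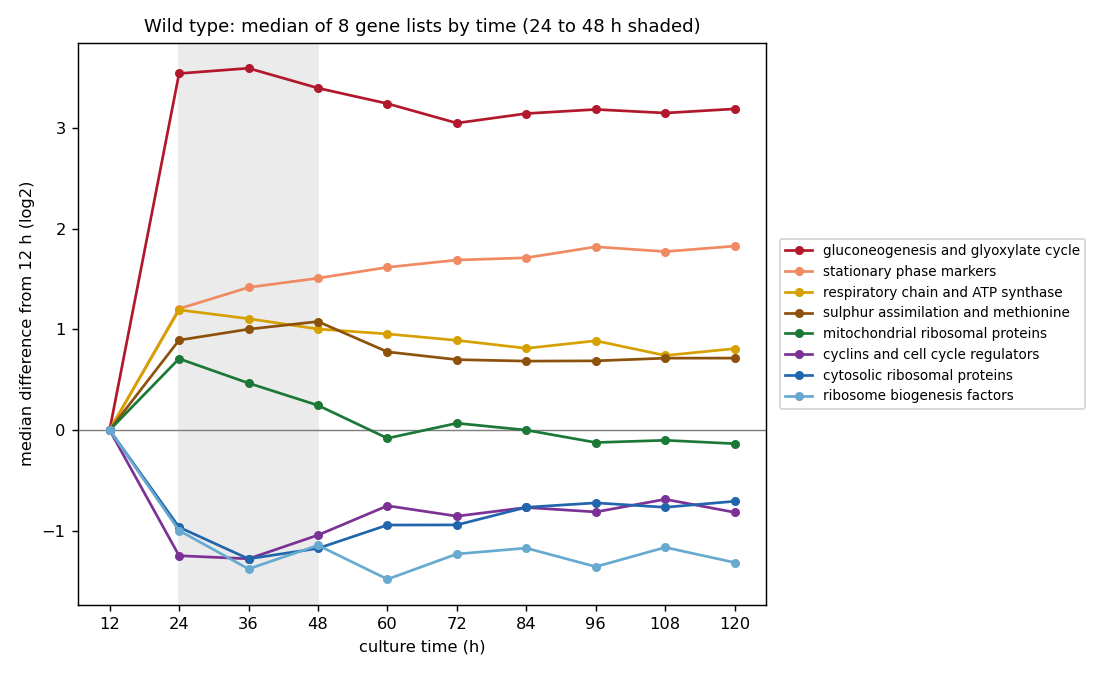
Median difference from 12 h (log2) of 8 gene lists at each wild-type time in hours, with the window of 24 to 48 h shaded; every point shares the 12 h array. Gluconeogenesis stays above 3 throughout, stationary phase markers stand at 1.83 at 120 h, and mitochondrial ribosomal proteins return to about 0 by 60 h.

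The labelled sch9 mutant was followed through the same hours on its own arrays, 1 per time. There 2153 genes (39.5%) were higher at all 3 later times and 2414 (44.3%) lower, and 704 (12.9%) and 767 (14.1%) reached 2-fold. The genes were largely shared. Of the 692 wild-type genes 620 (89.6%) were on the same side in the mutant, and 398 also reached 2-fold there, which is 57.5% of the wild-type set and 56.5% of the mutant set. Of the 760 lower genes 711 (93.6%) were on the same side and 483 reached 2-fold, 63.6% of the wild-type set and 63.0% of the mutant set. Across the 5449 genes, which are not independent, the differences of the strains correlated with Pearson's r of 0.77 and Spearman's rho of 0.75. Differences between the strains have no test.

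List medians of the strains differed by unlike amounts. Wild type and mutant stood at 1.09 and 0.55 for the respiratory chain and at -1.13 and -0.82 for cytosolic ribosomal proteins. For gluconeogenesis they stood at 3.47 and 2.87. There the mutant median was 2.30, 3.34 and 3.04 at 24, 36 and 48 h, against 3.54, 3.60 and 3.40 in the wild type, so the gap was widest at 24 h. The mutant 24 h array, which enters every mutant mean, stood apart in its control probe sets. Its mean 3' to 5' difference over control pairs was 1.06, against 0.73, 0.79 and 0.76 at 12, 36 and 48 h. The part of this in the gap was not tested. The mutant was further from 0 for general stress genes, at 1.27 in the wild type and 2.79 in the mutant, and for stationary phase markers, at 1.38 and 2.46. It was also further from 0 for trehalose and glycogen at 1.02 and 1.64, for acetate, ethanol and lactate use at 1.27 and 1.82, for antioxidant genes at 0.30 and 0.79, for ribosome biogenesis at -1.17 and -1.55, and for daughter cell separation at -1.25 and -2.11. It was nearer 0 for ergosterol synthesis, at -1.09 in the wild type and -0.62 in the mutant, and for purine synthesis, at -1.13 and -0.68. A larger difference was not always a higher later signal. Wild-type and mutant median signals of trehalose and glycogen genes were 11.21 and 10.08 at 12 h and 11.57 and 11.49 at 24 to 48 h. At 24 to 48 h they were 12.02 and 11.39 for acetate, ethanol and lactate use. They were 12.06 and 12.49 for general stress genes and 10.76 and 11.95 for stationary phase markers. Mitochondrial ribosomal proteins were on opposite sides, at 0.43 in the wild type, with 54 of 72 higher, and at -0.26 in the mutant, with 54 of 72 lower. CYC1 gave 12.58, 12.38 and 12.25 at 24, 36 and 48 h in the wild type, against 10.51 at 12 h, and 10.43, 10.60 and 10.91 in the mutant, against 10.85 at 12 h. ERG5 stood at -2.31 in the wild type and -0.02 in the mutant, ERG25 at -2.10 and 0.03, and VEL1 at -2.54 and -0.21. VEL1 differed between the strains at 12 h already, at 10.14 in the wild type and 7.17 in the mutant.

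Few of the 2-fold genes went the opposite way: 22 of the 692 and 15 of the 760 were on the other side in the mutant. Of these, 3 and 5 were so by 2-fold. Over all genes, 270 of the 2122 higher and 275 of the 2403 lower were on the other side in the mutant. By rule the 6 most opposite genes are given. The biotin genes BIO3 (YNR058W), BIO4 (YNR057C) and BIO5 (YNR056C) are neighbours on the chromosome, and encode the last steps of biotin synthesis and a transporter of a precursor. BIO4 gave 9.40, 10.02 and 10.20 at 24, 36 and 48 h in the wild type, against 11.70 at 12 h, and 11.65, 10.01 and 10.01 in the mutant, against 8.05 at 12 h. At 36 and 48 h the strains were close, and they were apart at 12 and 24 h. BIO3 differed by -1.82 in the wild type and 2.34 in the mutant and BIO5 by -1.38 and 2.04. YKL068W-A, an uncharacterized gene, stood at 2.68 and -1.03. YDL218W, also uncharacterized, gave 7.49, 7.45 and 7.49 in the wild type, against 7.71 at 12 h, and 12.76, 12.98 and 12.76 in the mutant, against 8.06 at 12 h. PDC6, a minor pyruvate decarboxylase, stood at -0.09 in the wild type and 4.20 in the mutant, so the wild type hardly moved for these genes. In the deposited values the wild-type differences were above 0, at 0.11 for YDL218W and 0.23 for PDC6.

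**Figure D5:**
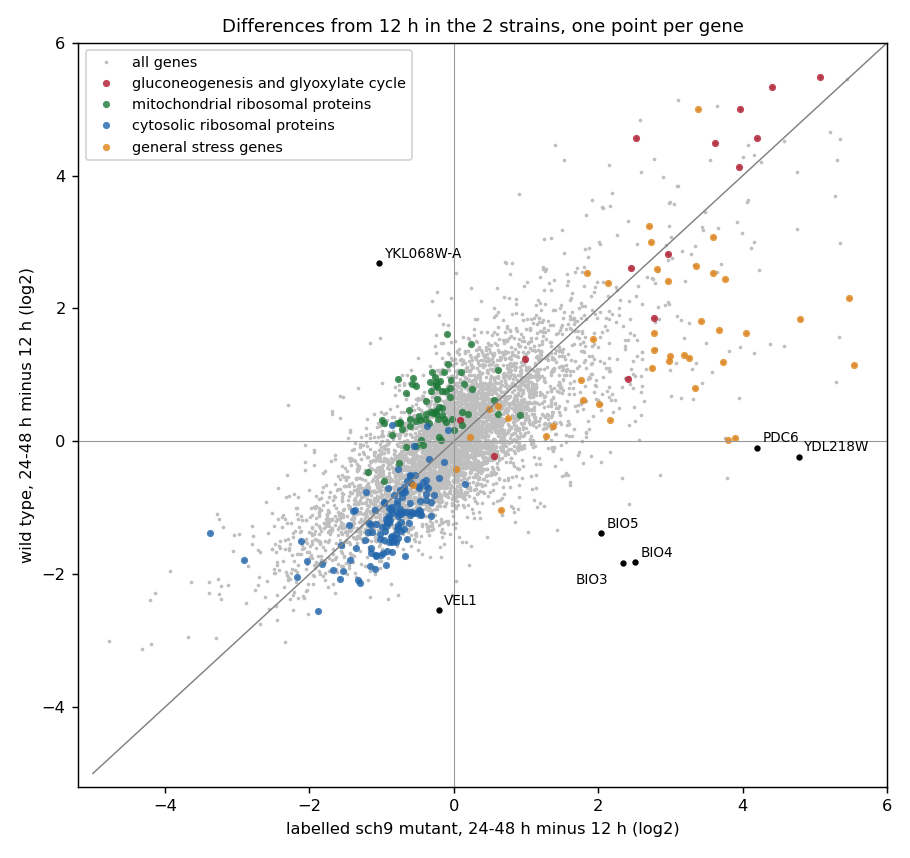
Difference from 12 h (log2, mean of 24, 36 and 48 h minus 12 h) in the wild type on the vertical axis and in the labelled sch9 mutant on the horizontal axis, 1 point per gene, with 4 gene lists coloured and the diagonal drawn. Most genes lie in the lower left and upper right quadrants. Mitochondrial ribosomal proteins lie mostly above 0 for the wild type and mostly below 0 for the mutant, and BIO3, BIO4 and BIO5 lie in the lower right.

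The control probe sets of the 4 arrays moved in part with the window. The mean 3' to 5' difference over 10 control pairs, which grows as messages lose their 5' ends, was 0.82, 0.87 and 0.86 at 24, 36 and 48 h, against 0.80 at 12 h. The deposited signal for 5.8S ribosomal RNA was 10.08, 12.03 and 12.20, against 9.52 at 12 h, and that for the 3' end of 25S was 9.66, 10.05 and 9.99, against 11.51 at 12 h. For the 3' end of 18S it was 8.03, 8.70 and 8.62, against 8.35 at 12 h. The 5.8S probe set was brighter at all 3 later times, and the 3' probe set of 25S dimmer. The 5' probe sets of both large RNAs were brighter at all 3. That of 25S gave 7.88, 8.20 and 8.36, against 7.82 at 12 h. That of 18S gave 12.59, 13.41 and 13.78, against 12.22 at 12 h. Over 60 to 120 h the 3' to 5' score ran from 1.09 to 1.44 and the signal for the 3' end of 18S from 10.54 to 14.64, higher than in the window. In the labelled mutant the 24 h array stood apart. Its 3' to 5' score was 1.06, against 0.73, 0.79 and 0.76 at 12, 36 and 48 h. Its signal for the 3' end of 25S was 8.36, against 12.33, 11.89 and 11.77. The part of these control signals in the differences was not tested.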

How the data were processed

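RNA of 10 wild-type and 9 labelled sch9 mutant samples was measured on single arrays, and 4 wild-type arrays form the comparison. The authors deposited log2 signals for 5814 probe sets. Neither the labels nor the file header names the software or normalization used. Control probe sets (51) and those without a gene (265) were set aside, and 1 probe set per gene, that with the highest mean, left 5449 genes. The platform annotation named the genes and 12 symbols were updated through gene identifiers. Probe sets with a shared-sequence suffix (115 genes) are uncertain. The 19 columns were quantile-normalized together (Python 3.11.15, numpy 2.4.6, pandas 2.3.3, scipy 1.17.1, with figures in matplotlib 3.10.9). Cyclic loess used limma 3.58.1 in R 4.3.3. With 1 array against 3, the smallest one-sided exact permutation p is 0.25, so no p is given. Calculations were tested on simulated data.

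The compared arrays and the 37 gene lists were chosen with earlier results of these data known. Genes named are the 15 largest differences in each direction and any member of lists of up to 15 genes. Of longer lists the 4 largest in each direction are named. Also named are isoenzyme partners, some mating type genes, SCH9 and the 6 most opposite genes between strains. COX5A, COX5B, SIC1, UGP1, ATP7, CTT1, SIP18, GRE1 in the stress list and the sporulation markers other than IME2 and SPS100 were chosen after their values were seen. Alternatives were other scalings, other probe set rules, a dim filter (25% of genes) and other sets of later arrays. The number of arrays limits the precision.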

Additional observations from a re-analysis of the deposited data

Results flagged for a closer look

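These results lay on opposite sides of 0 in the strains, with all 3 later arrays of each strain on their own side for single genes and list medians of opposite sign for lists. Each gap is the wild-type difference minus the mutant difference, and the difference was not tested. The strains differ by single arrays at each time, and 12 h values enter every gap. The median of mitochondrial ribosomal proteins stood at 0.43 in the wild type and -0.26 in the mutant, a gap of 0.69. The median of seripauperins stood at -0.18 in the wild type and 0.29 in the mutant, a gap of -0.47.

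Higher in the wild type and lower in the mutant, given as wild-type and mutant differences, were MRPL33 (1.17 and -0.09, gap 1.26), RPS14B (0.23 and -0.37, gap 0.60), NOP16 (0.53 and -0.80, gap 1.33) and DIM1 (0.45 and -1.01, gap 1.46). Next were RIO1 (0.38 and -0.55, gap 0.94), SUI1 (0.23 and -0.20, gap 0.43), WHI5 (0.31 and -0.16, gap 0.47) and TIP1 (1.55 and -1.03, gap 2.58). Further such genes were STE2 (0.35 and -0.09, gap 0.44), ADE3 (0.11 and -0.24, gap 0.36), SCH9 (0.65 and -0.43, gap 1.09) and YKL068W-A (2.68 and -1.03, gap 3.72).

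Lower in the wild type and higher in the mutant, in the same form, were PYC2 (-0.22 and 0.56, gap -0.78), TDH1 (-0.09 and 1.36, gap -1.46), LSC2 (-0.68 and 0.68, gap -1.36) and ATG19 (-1.01 and 0.82, gap -1.82). Then came VPS15 (-0.77 and 0.49, gap -1.26), PIG1 (-0.33 and 0.82, gap -1.15), GPD1 (-1.04 and 0.65, gap -1.68) and HTB1 (-0.54 and 0.21, gap -0.75). Others lower in the wild type were BIO3 (-1.82 and 2.34, gap -4.17), BIO4 (-1.82 and 2.51, gap -4.33), BIO5 (-1.38 and 2.04, gap -3.41) and PDC6 (-0.09 and 4.20, gap -4.29). The widest gap here was that of YDL218W (-0.23 and 4.77, gap -5.0). In the deposited values the wild-type differences of YDL218W and PDC6 were above 0, at 0.11 and 0.23, so their side depends on the scaling. The same holds for PYC2 and for the seripauperin median, which was 0.38 there. Deposited differences exceed those given here by a median of 0.50, so other genes a little below 0 may also change side.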

How the results depend on the processing

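The counts were recomputed under 13 alternatives. The deposited values, without quantile normalization, gave 3277 genes higher, 1217 lower, 1432 higher by 2-fold and 238 lower by 2-fold. These held all 692 genes higher by 2-fold and 31.3% of the 760 lower ones; the 12 h array is dimmer as a whole in those values. A minimum of 4-fold left 164 and 68 genes. Leaving out 1 later array gave 2167 to 2327 genes higher, 2470 to 2683 lower, 648 to 762 higher by 2-fold and 692 to 809 lower by 2-fold. Every other alternative gave counts within 1.5 times those reported. The 12 h array cannot be left out, and nothing measures its own error. Of 37 list medians 28 kept their sign in every alternative. In the deposited values glycolysis stood at 0.25, histones at 0.55, amino acid biosynthesis at 0.17, the zinc regulon at 0.42, seripauperins at 0.38 and mating type genes at 0.069. With median centring hexose transporters stood at -0.10, histones at 0.034 and meiosis at -0.24. With the dimmest 25% of genes left out, which removes list members, the medians of mating type genes, meiosis, hexose transporters and the phosphate regulon were -1.61, 1.02, 0.72 and 0.41. Without 1 later array the phosphate regulon ran from -0.036 (without 24 h) to 0.031 (without 48 h), and meiosis from -0.0045 (without 48 h) to 0.11 (without 24 h). The cause was not tested. Of 198 named genes with a 2-fold difference, 163 kept it in every alternative that still held the gene. Another 21 lost it only in the deposited values. Many of these genes were named for their large differences, so these counts do not stand for all 2-fold genes. A gene that the dim filter removed was not counted as losing its difference there. No paired analysis was possible because each time point is 1 array and no replicate numbers are shared.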
